A study of Mus musculus with 8 samples.

Results

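Granulocyte-monocyte transcription factors are the DNA-binding proteins and their inhibitors that guide a myeloid progenitor towards granulocytes or monocytes. The set held 10 genes, chosen by name for this role, and every non-control probe with one of these gene names was taken: Sfpi1 (the array's name for Spi1, which encodes PU.1), Cebpa, Cebpb, Cebpd, Cebpe, Irf8, Gfi1, Klf4, Id2 and Myb. Each was measured by 1 probe, so that 10 of 55681 probes and 10 of 34797 gene names were examined. All 10 probes were well above background on all 8 arrays. In the mm9 coordinates of the array design, the probe of Irf8 lies at chr8:123280324-123280383, that of Klf4 at chr4:55540167-55540226, that of Gfi1 at chr5:108145719-108145778, that of Cebpb at chr2:167515828-167515887 and that of Cebpd at chr16:15888459-15888518.

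RNA of common myeloid progenitors (CMPs), bone marrow cells from which granulocytes, monocytes, megakaryocytes and erythroid cells derive, was measured on 1-colour Agilent arrays, and the design asks how these cells differ between young and old mice. There were 4 young and 4 old samples, 1 array each, all wildtype, untreated and of the strain C57BL/6J, housed free of pathogens. The sample labels give an age of 2 to 3 months for the young and 22 to 24 months for the old mice, and the description of the whole series gives ranges of 3 to 4 months and 22 to 26 months instead. The study's methods speak of 3 mice per age without naming the arrays, and the labels do not tie arrays to animals, so that p-values measure the spread between these samples. The cells were sorted by surface markers, as lineage-negative, Kit-positive and Sca-1-negative cells with CD34 and a low level of Fcγ receptor.

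PU.1 and C/EBPα act early in the myeloid lineage and open the genes of its receptors and granules. In the later choice, IRF8 and KLF4 favour monocytes and dendritic cells, whereas GFI1 and C/EBPε favour neutrophils. C/EBPβ and C/EBPδ are induced by cytokines and inflammation, ID2 binds E proteins and keeps them from DNA, and MYB sustains the dividing, immature progenitor.

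The 75th percentile of the signal intensity lay between 352 and 565 on young and between 290 and 518 on old arrays, between 55.6% and 63.2% of probes were well above background, and no spot was saturated. Arrays of the same age correlated at 0.969 to 0.992 over all tested probes. Both ages were spread evenly over 2 slides, with 2 young and 2 old arrays on either slide. Levels below are log2 signals relative to the 75th percentile of the same array, so that 0 is the level of that percentile, and they were compared between ages but not between genes. In sorted cells measured in bulk, fewer cells of a type and less RNA per cell cannot be told apart.

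Of the 10 factors, 5 were lower on every old than on every young array, namely Cebpb, Cebpd, Irf8, Gfi1 and Klf4, with differences of 1.42- to 1.64-fold. No factor passed the test across the array, in either direction. A gene was called at an adjusted p (limma with Benjamini-Hochberg adjustment over 33479 tested probes) under 0.05 and a fold of at least 1.5. By this rule 0.0329% of all tested probes were called lower and 0.158% higher in old CMPs. Without adjustment, the same 5 factors and no other had a limma p under 0.05, where 2.73% of tested probes did so in the lower direction and 3.61% in the higher. The arrays of the 2 ages did not overlap, with old below young, for 5 of 10 factors and for 1.57% of all tested probes, or 1.62% of those well above background on all 8 arrays. No factor lay above without overlap, against 2.86% of tested probes. The log2 difference was negative for 9 of the 10 factors, with a median of -0.41 against -0.02 over all tested probes. Leaving out 1 array at a time moved this median between -0.56 (without old array 2) and -0.24 (without old array 4), and the differences of Sfpi1 and Cebpa turned positive without young array 5 or old array 4, that of Cebpa also without young array 6 and that of Myb without young array 4.

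**Figure D1:**
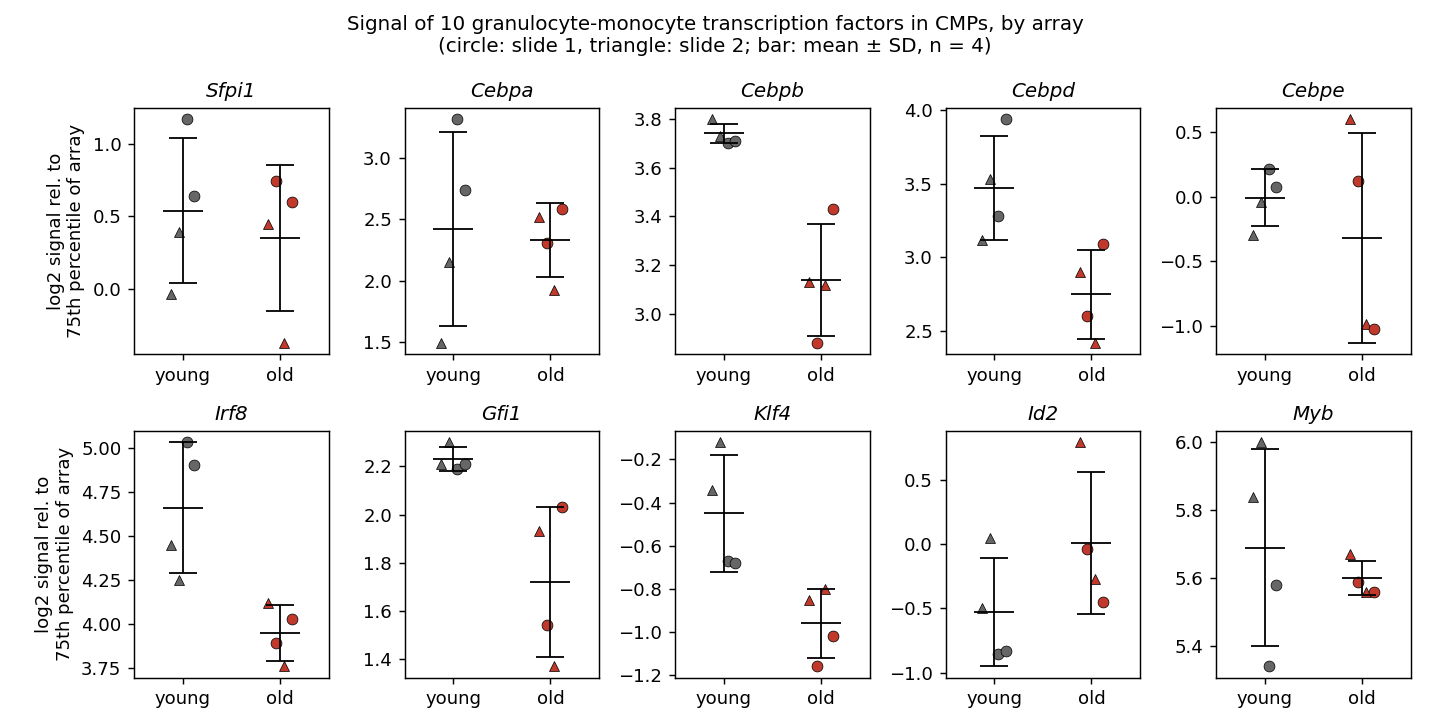
Signal of the 10 factors on each array (y axis, log2 relative to the array's 75th percentile; the range of the axis differs between panels) in young and old CMPs (x axis), with the mean and SD of 4 arrays. The old arrays lie below all young arrays for Cebpb, Cebpd, Irf8, Gfi1 and Klf4, and the ages overlap for the others.

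Irf8, a factor of monocytes and dendritic cells, stood at 4.45, 4.25, 5.03 and 4.90 on young arrays 3, 4, 5 and 6 and at 4.12, 3.89, 3.76 and 4.03 on old arrays 2, 3, 4 and 5. The highest old array lay below the lowest young array. The log2 difference was -0.71 (SE 0.22, 95% interval -1.19 to -0.22, adjusted p = 0.394 by limma), and it was -1.01 on the first and -0.41 on the second slide. Klf4, which acts with IRF8 in monocytes, stood at -0.34, -0.12, -0.67 and -0.68 in young and at -0.85, -1.16, -0.80 and -1.02 in old CMPs. The ages did not overlap here either, with -0.68 as the lowest young and -0.80 as the highest old value. The log2 difference of Klf4 was -0.51 (SE 0.19, 95% interval -0.94 to -0.07, adjusted p = 0.627 by limma).

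Gfi1, a repressor of monocyte genes in neutrophil precursors, was nearly the same on the young arrays, at 2.21, 2.30, 2.19 and 2.21, and stood at 1.93, 1.54, 1.37 and 2.03 on the old arrays. The SD was 0.05 in young and 0.31 in old CMPs. The log2 difference was -0.51 (SE 0.19, 95% interval -0.94 to -0.08, adjusted p = 0.617 by limma). Cebpe, needed for the late granules of neutrophils, stood at -0.30, -0.04, 0.21 and 0.07 in young and at 0.60, 0.12, -0.98 and -1.02 in old CMPs. The old arrays of Cebpe thus lay on both sides of the young ones, 2 near or above them and 2 below. Its log2 difference was -0.31 (SE 0.36, 95% interval -1.11 to 0.50, adjusted p = 0.998 by limma), and it was -0.61 without old array 2, -0.086 without old array 4 and -0.074 without old array 5.

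Cebpb, which drives granulocyte production in emergencies such as infection, stood at 3.80, 3.73, 3.70 and 3.71 on the young arrays and at 3.13, 2.88, 3.12 and 3.43 on the old arrays. The young values were tight, with an SD of 0.04, and all old values lay below them. The log2 difference was -0.60 (SE 0.17, 95% interval -0.99 to -0.21, adjusted p = 0.351 by limma), and it was -0.55 and -0.64 on the 2 slides. Cebpd, its relative that acts in inflammation, stood at 3.12, 3.53, 3.28 and 3.94 in young and at 2.90, 2.60, 2.42 and 3.09 in old CMPs. The highest old and the lowest young array nearly met, at 3.09 and 3.12. The log2 difference of Cebpd was -0.71 (SE 0.23, 95% interval -1.24 to -0.19, adjusted p = 0.470 by limma).

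The RefSeq promoter table (GRCm38.p6) held 7 of the 10 factors, among them 4 of the 5 lower ones. Where it has several starts for a gene, the outermost was taken. The promoters of these 4 lower factors are printed to show their letters, as the 250 bases before each gene's start on its own strand. They lie at chr8:120736108-120736357 (Irf8, + strand), chr4:55532476-55532725 (Klf4, − strand), chr5:107725806-107726055 (Gfi1, − strand) and chr2:167688665-167688914 (Cebpb, + strand). Capitals mark matches, on either strand, to a C/EBP site (TTGCNNCAA), a STAT site (TTCNNNGAA), a PU.1 site (GAGGAAG), an IRF site (the letters GAAA repeated after any pair of bases), and a CRE core (TGACG). The box spelled CCAAT was searched in the same way, and so was the TATA motif spelled TATAAA. No match of one motif overlapped a match of another in the printed windows.
Irf8: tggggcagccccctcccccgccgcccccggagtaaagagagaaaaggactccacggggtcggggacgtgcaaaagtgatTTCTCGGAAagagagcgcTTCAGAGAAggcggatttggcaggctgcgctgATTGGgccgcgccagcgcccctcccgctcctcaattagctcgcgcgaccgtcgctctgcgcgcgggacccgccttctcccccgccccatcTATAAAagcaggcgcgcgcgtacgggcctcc
Klf4: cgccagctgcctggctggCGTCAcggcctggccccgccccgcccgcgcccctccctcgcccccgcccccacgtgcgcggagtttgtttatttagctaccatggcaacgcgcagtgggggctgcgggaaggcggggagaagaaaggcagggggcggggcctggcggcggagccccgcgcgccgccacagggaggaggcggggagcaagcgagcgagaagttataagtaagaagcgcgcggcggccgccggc
Gfi1: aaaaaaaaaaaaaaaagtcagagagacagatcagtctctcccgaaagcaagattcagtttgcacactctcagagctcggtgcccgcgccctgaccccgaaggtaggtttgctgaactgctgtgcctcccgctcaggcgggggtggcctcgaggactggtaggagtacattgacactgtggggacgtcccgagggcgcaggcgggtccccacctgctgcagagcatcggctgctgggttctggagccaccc
Cebpb: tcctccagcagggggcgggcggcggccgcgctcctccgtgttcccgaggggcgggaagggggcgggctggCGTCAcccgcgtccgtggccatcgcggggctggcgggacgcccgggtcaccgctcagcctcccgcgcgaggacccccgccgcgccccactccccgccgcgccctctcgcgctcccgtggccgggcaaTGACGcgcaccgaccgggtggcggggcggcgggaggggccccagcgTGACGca
Irf8 held 2 STAT matches, 171 to 163 and 153 to 145 bases before its start, beside 1 CCAAT match and 1 TATA match. A STAT match was found in 7.02%, a CCAAT match in 33.8% and a TATA match in 12.4% of the 32851 promoters in the table. Cebpb held 3 CRE cores and Klf4 held 1, a motif found in 17.8% of promoters. Gfi1 held no match. Of the windows not printed, that of Id2 held 3 CCAAT matches, that of Cebpa 1 TATA match and that of Myb none. The printed windows had 59.2% (Gfi1) to 81.6% (Cebpb) of G and C letters, against a median of 52.4% over all promoters. The shares over all promoters were not adjusted for this. The C/EBP, PU.1 and IRF letters, found in 1.74%, 10.6% and 2.98% of promoters, were in none of the 7 windows. A match is a description of the letters and not evidence of a bound site, and no match says only that these letters are not in the window.

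The early factors differed between the ages by less than the SD of either age. Sfpi1 stood at -0.03, 0.39, 1.17 and 0.64 in young and at 0.45, 0.74, -0.37 and 0.60 in old CMPs. Its log2 difference was -0.19 (SE 0.31, 95% interval -0.89 to 0.51, adjusted p = 0.998 by limma). Cebpa, which is required for the step from CMP to granulocyte-monocyte progenitor, stood at 1.49, 2.15, 3.32 and 2.74 in young and at 2.52, 2.31, 1.92 and 2.58 in old CMPs. All old arrays lay within the young range. The log2 difference of Cebpa was -0.09 (SE 0.36, 95% interval -0.90 to 0.72, adjusted p = 0.998 by limma), and its sign differed between the slides, at -0.58 and 0.40. These intervals leave room for differences of either sign.

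Myb stood at 5.84, 6.00, 5.34 and 5.58 in young and at 5.67, 5.59, 5.56 and 5.56 in old CMPs, so that the old arrays again lay inside the young range. Its log2 difference was -0.09 (SE 0.19, 95% interval -0.52 to 0.33, adjusted p = 0.998 by limma). Id2 was the only factor with a higher mean in old CMPs. It stood at -0.50, 0.05, -0.85 and -0.83 in young and at 0.79, -0.04, -0.27 and -0.45 in old CMPs. The ages overlapped, and the log2 difference was 0.54 (SE 0.31, 95% interval -0.15 to 1.23, adjusted p = 0.950 by limma), or 0.28 without old array 2.

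**Figure D2:**
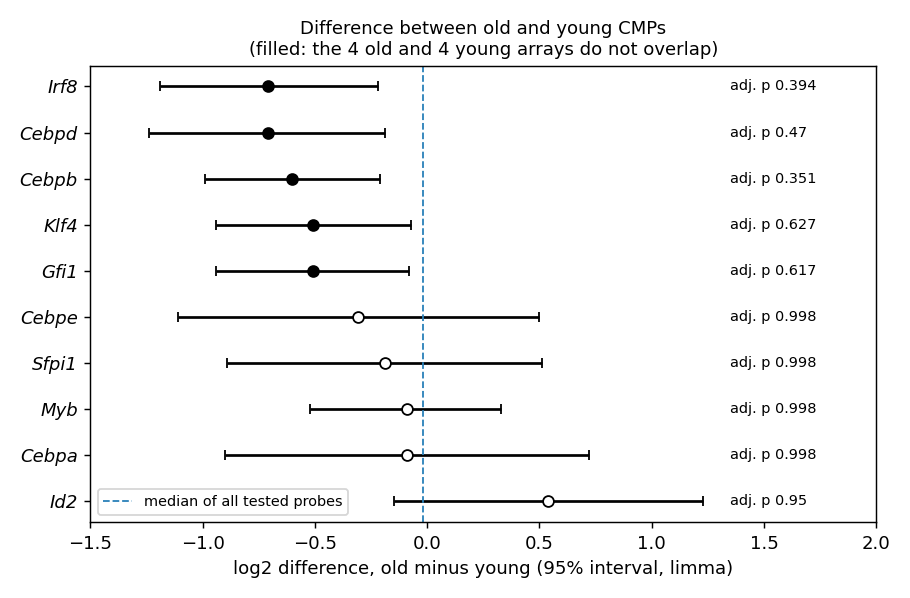
Log2 difference between old and young CMPs (x axis) for each factor (y axis) with the 95% interval of limma and the adjusted p. The intervals of the 5 factors whose arrays do not overlap (filled) lie below 0, and none of the 10 adjusted p-values is under 0.05.

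The count of 5 factors without overlap depended on how the arrays were scaled. It was 5 after quantile normalization and 4 with the authors' own table of log2 values. The share over all probes was not counted for either of these. It was 3 after normexp background correction (Cebpb, Irf8 and Gfi1, where 1.05% of all tested probes had old below young). After a shift to each array's median it was 1 (Cebpb, against 0.795% of probes). The shift to the median moved the median difference of all probes by 0.12, from -0.02 to 0.10. Relative to the median of all probes, the differences were -0.69 for Irf8, -0.69 for Cebpd, -0.58 for Cebpb, -0.49 for Gfi1 and -0.48 for Klf4. The difference stayed negative for these 5 factors, picked for being lower, under all 4 scalings. The shift to the median moves every probe by the same 0.12, so that it could not turn their sign. The differences of Cebpa and Myb, which lay nearer to 0, changed sign under it.

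**Figure D3:**
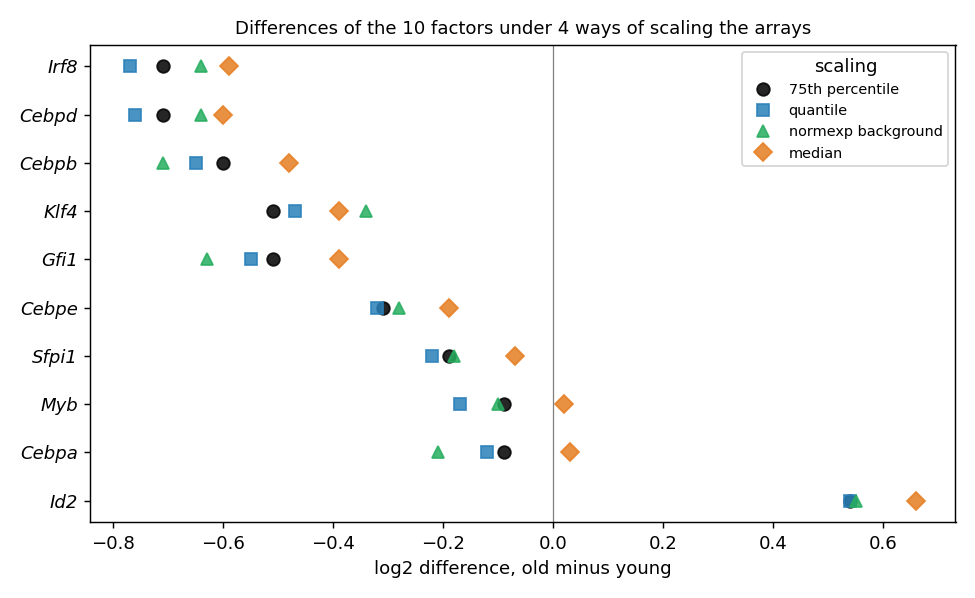
Log2 difference between old and young CMPs (x axis) for each factor (y axis) under 4 ways of scaling the arrays. The differences of Irf8, Cebpd, Cebpb, Klf4 and Gfi1 lie between -0.77 and -0.34 under every scaling, and those of Cebpa and Myb reach 0.03 and 0.02 under the median.

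Whether factors known to act together or against each other varied together from array to array was examined for 6 pairs. The closest was Sfpi1 with Cebpa, the pair of early factors, with Pearson's r = 0.86 over 8 arrays (exact permutation p = 0.00945, adjusted p = 0.0567 over the 6 pairs) and Spearman's rho = 0.83 (exact permutation p = 0.0154, adjusted p = 0.0923). The relation of this pair was as strong without the 2 arrays farthest from the median of Sfpi1 (r = 0.86) and with the age means removed (r = 0.86), and r was 0.71 with the slide means removed. Irf8 and Gfi1, which act against each other in the choice between monocytes and neutrophils, gave r = 0.74 (exact permutation p = 0.0395, adjusted p = 0.119) and rho = 0.76 (exact permutation p = 0.0368, adjusted p = 0.110). Without the 2 farthest arrays r was 0.90, but with the age means removed it was 0.25. Irf8 with Klf4, Sfpi1 with Irf8, Cebpa with Cebpe and Gfi1 with Cebpe gave r of 0.38, 0.56, 0.37 and 0.31 and rho of 0.64, 0.40, 0.43 and 0.00, with adjusted exact permutation p-values of r from 0.299 to 0.463. For Irf8 with Klf4, r was -0.78 with the age means removed, 0.76 with the slide means removed and 0.73 without the 2 farthest arrays. For Sfpi1 with Irf8 it was 0.69, 0.46 and -0.23 in the same order, for Cebpa with Cebpe 0.36, 0.49 and 0.35, and for Gfi1 with Cebpe 0.15, 0.31 and -0.07. No pair passed the adjustment, and each slide held 4 arrays, too few for a value within slides.

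**Figure D4:**
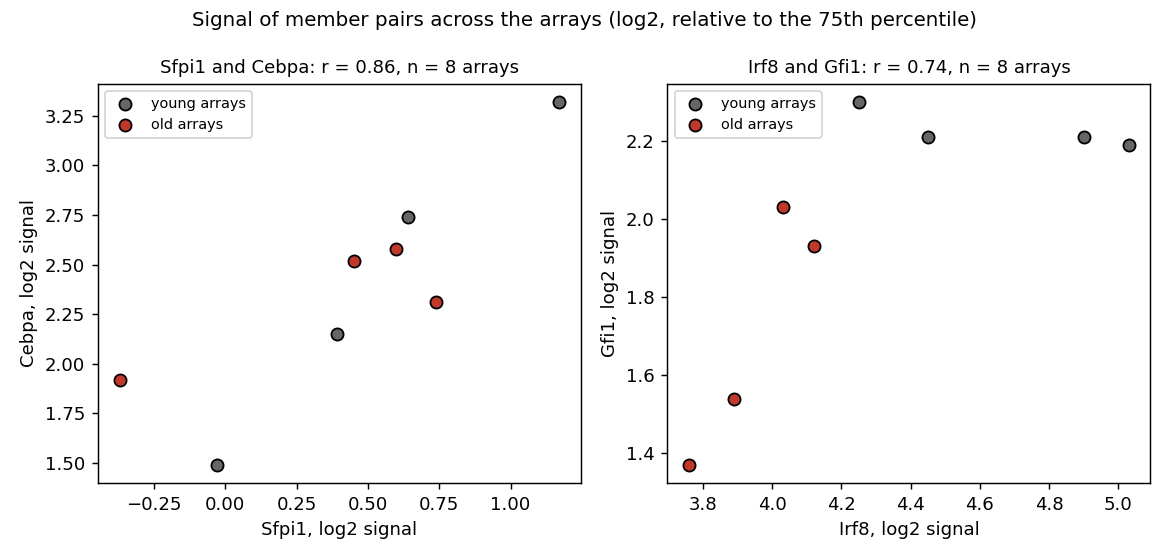
Log2 signal of Cebpa against Sfpi1 (left) and of Gfi1 against Irf8 (right), with 1 point per array (n = 8). Young and old arrays mix along the line of the first pair, with r = 0.86, whereas the old arrays lie at the lower left in the second, with r = 0.74.

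Other genes of the granulocyte-monocyte programme were read from lists, each gene by its brightest tested probe. Over all 23161 tested gene names the old arrays lay below the young for 1.66% and above for 3.20%, and the median difference was -0.01. None of the genes on the 5 lists that follow was called. Of 26 partner factors, 23 were tested, 5 lay above without overlap and none below, with a median of 0.05 (-0.02 to 0.12 when 1 array was left out, negative without young array 5). Egr1 and Egr2, immediate early factors that act in monocyte development, differed by 0.99 (adjusted p = 0.130 by limma) and 0.88 (adjusted p = 0.152 by limma). Gfi1b, the relative of Gfi1 that acts in erythroid cells and megakaryocytes, differed by 0.57, Nab2 by 0.45 and Stat3 by 0.25, and second probes of Nab2 and Stat3 overlapped between the ages. The lowest partner factors were Irf5 at -0.50 and Irf4 at -0.42, both overlapping. Irf4 was dim, with its probe well above background on only 2 young and 2 old arrays.

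Among 9 myeloid receptors the median was -0.26, and it was -0.55 without old array 2 and -0.083 without old array 5. Csf1r, the receptor for the monocyte growth factor M-CSF, was the only one without overlap, at -0.57 (adjusted p = 0.448 by limma), and its 2 other probes, at -0.57 and -0.07, overlapped. Il3ra stood at -0.54, and Csf2rb and Csf2rb2, near-identical genes for receptor chains whose signals a probe may share, stood at 0.41 and 0.70. A list of 10 genes was named for azurophil granules, the first granules a neutrophil makes. Some of its genes, such as Hdc, encode no protein of these granules. Of the 10, Prtn3 and Mpo lay below without overlap, at -1.01 (adjusted p = 0.369 by limma) and -0.59 (adjusted p = 0.356 by limma). A second probe of Mpo, at -0.66, overlapped between the ages. Elane stood at -1.02 with overlap, Hdc at 0.10 and Nkg7 at 0.31, and the median of the list was -0.22 (-0.30 to -0.13 when 1 array was left out, lowest without old array 2 and highest without young array 4). A second, dimmer probe of Nkg7, at 0.44, lay above without overlap.

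The 15 monocyte and dendritic genes had 14 tested members with a median of -0.25, or -0.40 without old array 2 and -0.11 without old array 4. Ly6c1 at -1.52 (adjusted p = 0.220), F13a1 at -1.11 (adjusted p = 0.154), Ly86 at -1.07 (adjusted p = 0.149) and Ccr2 at -0.99 (adjusted p = 0.282), all by limma, lay below without overlap. Ly6C, a surface protein that marks inflammatory monocytes, is encoded by Ly6c1 and its near-identical copy Ly6c2. The probes of Ly6c1 may take signal from both genes, and Ly6c2 had no probe under its own name, so that the 2 were not told apart. Ccr2 is the receptor that calls these monocytes from the marrow. Itgam at 0.25 and H2-Aa at 0.52 stood highest, although the other probes of Itgam stood at -0.19 and -0.11. Genes of mature neutrophils were dim. Of 12, 7 were tested, 0 were without overlap, and Mmp8 at -1.03 and S100a8 at -0.50 stood lowest and Camp at 0.02 and Chi3l3 at 0.07 highest. The median of these genes was -0.17, with -0.43 without old array 2 and 0.086 without old array 5 as the extremes when 1 array was left out.

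**Figure D5:**
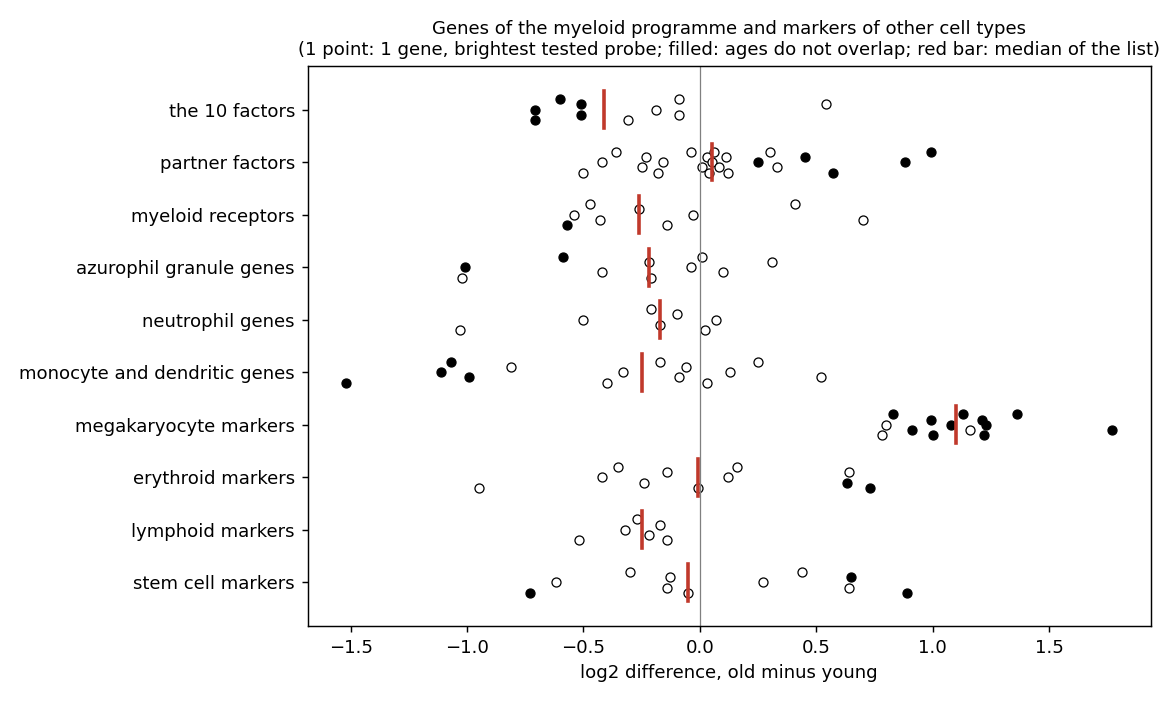
Log2 difference between old and young CMPs (x axis) of each tested gene, by list (y axis), with the median of a list as a red bar. The median of the 10 factors is -0.41 and that of the megakaryocyte markers 1.10.

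Markers of other cell types were read in the same RNA. Of 14 megakaryocyte markers, 11 lay above the young arrays without overlap, with a median of 1.10, and Gp9 was called (1.21, adjusted p = 0.0327 by limma). One of the 11, Gp1bb, had a value on only 3 old arrays. The summed linear level of this list, in units of the 75th percentile, was 101 to 200 in young and 288 to 383 in old CMPs. That of the 10 factors was 112 to 122 in young and 83.9 to 99.3 in old CMPs. Such a sum weighs the brightest probes most. These were Pf4 for the megakaryocyte markers, with log2 means of 6.25 in young and 7.61 in old CMPs, and Myb and Irf8 for the factors. The sums therefore do not describe every gene of a list, and they were not compared between lists. Of 12 erythroid markers 11 were tested, with a median of -0.01 and 6 of them below 0. Car2 (0.63) and Gata1 (0.73) lay above without overlap, whereas Hba-a1 (-0.95) and Slc4a1 (-0.42) stood lowest and overlapped. Of 12 stem cell markers 11 were tested, with a median of -0.05, of which Meis1 (0.65) and Mycn (0.89) lay above and Ly6a, which encodes Sca-1, lay below (-0.73). Leaving out 1 array moved these medians from -0.13 to 0.17 and from -0.18 to 0.21. Lymphoid markers had 6 of 12 tested members, a median of -0.25 and 0 without overlap, and Ebf1 and Pax5 were not well above background on any array. The part of these cell types in the levels of the 10 factors was not tested.

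By the genes of the sort, the tested members among 7 had a median of -0.42, with Kit at 0.31, Cd34 at -0.21 and Fcgr3 at -0.47, and Ly6a was the only one without overlap. Kit, Cd34 and Csf3r were all measured above background in both ages.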

How the data were processed

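Per the labels and methods, the authors labelled total RNA of sorted CMPs with Cy3, hybridized it to Agilent arrays and quantified the scanned images (Feature Extraction, version 10.7.3.1). For every array, the deposited values are background-corrected intensity on a linear scale, together with the software's quality marks and mm9 probe coordinates. The authors also deposited a table of log2 values, shifted to the 75th percentile and centred, which served as an alternative.

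Intensities were put on the log2 scale and reduced by their array's 75th percentile (control spots excluded). Spots that the software flagged as uneven or as outliers of their population were dropped, and repeated spots were averaged per probe. Probes well above background on at least 4 of 8 arrays were tested, 33479 in all, with limma 3.58.1 in R 4.3.3 (data.table, version 1.17.8), without covariates. The step was tested on simulated data. Precision is set by having 4 arrays per age and by how far a probe lies above background.

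The 10 factors, the gene lists and the tests were chosen with earlier results of these data known. The text names the 10 factors and, from each list, called genes or the 2 highest and 2 lowest tested genes, and for other cell types genes without overlap. Other genes without overlap on the lists of the myeloid programme, the genes of the sort, Csf3r, Hba-a1, Slc4a1 and the lymphoid genes not above background were named after their values were seen. Alternatives were background correction, scaling, the series table, filters on dim probes, the methods' t-test, other limma settings, blocks for slide and replicate number, and leaving out each array. Probe positions relative to exons were not analysed here.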

Additional observations from a re-analysis of the deposited data

How the results depend on the processing

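No factor was called higher under any of 25 alternatives. None was called lower under 23 of them, and 3 were (Cebpb, Cebpd and Irf8) by limma without adjustment and 3 by the methods' t-test without adjustment, the latter added after seeing the data. By limma without adjustment 631 of 23161 tested gene names over the array were called lower, and by that t-test 359 genes were. Factors without overlap numbered 5 with quantile normalization, 4 with the series table, 3 with normexp and 1 with the shift to the median, counts added after seeing the data. The share of all tested probes with old below young was 1.05% with normexp and 0.795% with the shift to the median. It was not counted for quantile normalization or the series table. Leaving out an array cannot create an overlap, so that check says nothing about stability. Of 230 values of single factors, 220 kept their direction and their side of the threshold. Cebpa turned to 0.026 with the shift to the median and 0.40 within slide 2, and Myb to 0.024 with that shift and 0.12 within slide 1. Leaving out each array gave -0.40 to 0.21 for Cebpa, -0.38 to 0.052 for Sfpi1 and -0.21 to 0.011 for Myb, -0.61 to -0.074 for Cebpe and 0.28 to 0.73 for Id2, and r from -0.16 to 0.50 for Gfi1 with Cebpe. The lowest adjusted p over the alternatives was 0.0685 for Cebpb, 0.0748 for Cebpd, 0.0891 for Irf8, 0.148 for Gfi1 and 0.194 for Klf4. Sfpi1 with Cebpa passed at r = 0.88 with the shift to the median (adjusted exact permutation p = 0.0382) and at 0.87 with the series table (adjusted exact permutation p = 0.0423), and Irf8 with Gfi1 at 0.86 with normexp (adjusted exact permutation p = 0.029). The permutation did not hold age fixed, and with normexp both Irf8 and Gfi1 were lower on every old array. Its p therefore does not separate variation between arrays from a difference between ages that both genes share. With the age means removed, r of Irf8 with Gfi1 was 0.25 in the main scaling, and no such value is given for normexp.

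Over the whole array, 48 genes were called higher and 10 lower. These counts were 75 and 21 with normexp, 24 and 2 with no filter, 27 and 2 with a filter of 1 array, 190 and 88 with array weights, 0 and 0 by the methods' t-test with adjustment, 590 and 359 without adjustment, and 777 and 631 by limma without adjustment. The trend with robust variances called 77 higher. Fewer were called lower with quantile normalization (3), the shift to the median (5), a filter of all 8 arrays (6) and the slide as a block (4). The series table gave 6 lower genes over lines with a tested probe, and 23 higher and 1 lower over every line. The first run of this alternative tested every line, and the limit to lines with a tested probe, which keeps the filter of the other runs, was set after those counts were seen. Leaving out each array gave 22 to 37 and 2 to 6. The causes were not tested. Same-numbered arrays deviated from their age means with correlations of -0.09, -0.14 and 0.15 for the numbers 3, 4 and 5. No pairing by number was seen, and so few correlations cannot exclude one. The replicate block, over those numbers, called 12 genes higher and 1 lower and no factor. It gave Id2 at 0.18, Cebpe at -0.59 and a median of the 10 factors of -0.59. Array weights gave a median of -0.079 for the monocyte and dendritic genes.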
